A study of Homo sapiens with 12 samples.

Results

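RNA sequencing libraries of untreated LOX-IMVI BR cells were compared with those of untreated A375 cells, both human metastatic melanoma cell lines per the labels. The comparison took 4 of the 12 libraries of the study, namely the 2 biological replicates that each line had under the control treatment, and they were chosen by the labelled line and treatment alone. The other 8 libraries are of the same lines exposed to 6-thio-dG at 5 µM, a thioguanine nucleoside incorporated by telomerase, or to BIBR1532 at 25 µM, a telomerase inhibitor. All cells were grown in 6-well plates and RNA was isolated with TRIzol. The labels name no allele or transgene in either line. The meaning of BR, the control vehicle and the exposure time do not appear in the sources used here. Each group is 1 established line, so the comparison is of these lines and is not repeated over tumours.

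Melanoma arises from melanocytes, the pigment cells of the skin, which descend from the neural crest. The transcription factors SOX10 and PAX3 turn on MITF, and MITF in turn drives pigment genes such as TYR by binding a short element in their promoters, the M-box. Melanoma lines are known to range from differentiated states with high MITF, through neural crest-like states marked by NGFR, to dedifferentiated states that have lost SOX10 and express AXL, WNT5A, EGFR and matrix genes. A375 and the line LOX-IMVI are both known to carry an activating BRAF mutation, which drives the ERK pathway, whose feedback genes (the DUSP phosphatases, the SPRY proteins) are a usual readout of its activity.

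The control libraries held 25822381 and 14817553 counts in A375 and 22700404 and 24503867 in LOX-IMVI BR. Levels are given as CPM, counts scaled to a common library total, replicate 1 first and then replicate 2. Differences are given on the log2 scale, LOX-IMVI BR minus A375, with the standard error of the fit, and each adjusted p comes from edgeR's quasi-likelihood test with Benjamini-Hochberg adjustment over the 29114 genes tested. A gene was called at an adjusted p under 0.05. Of all genes tested, 6132 (21.1%) were called higher in LOX-IMVI BR and 8373 (28.8%) lower, with a median difference of -0.12. Among the 14419 genes with a symbol, 3238 (22.5%) were higher and 4663 (32.3%) lower, and their median was -0.17. These shares are the background for each gene list described here. The lines thus differed at 49.8% of the genes tested.

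**Figure D1:**
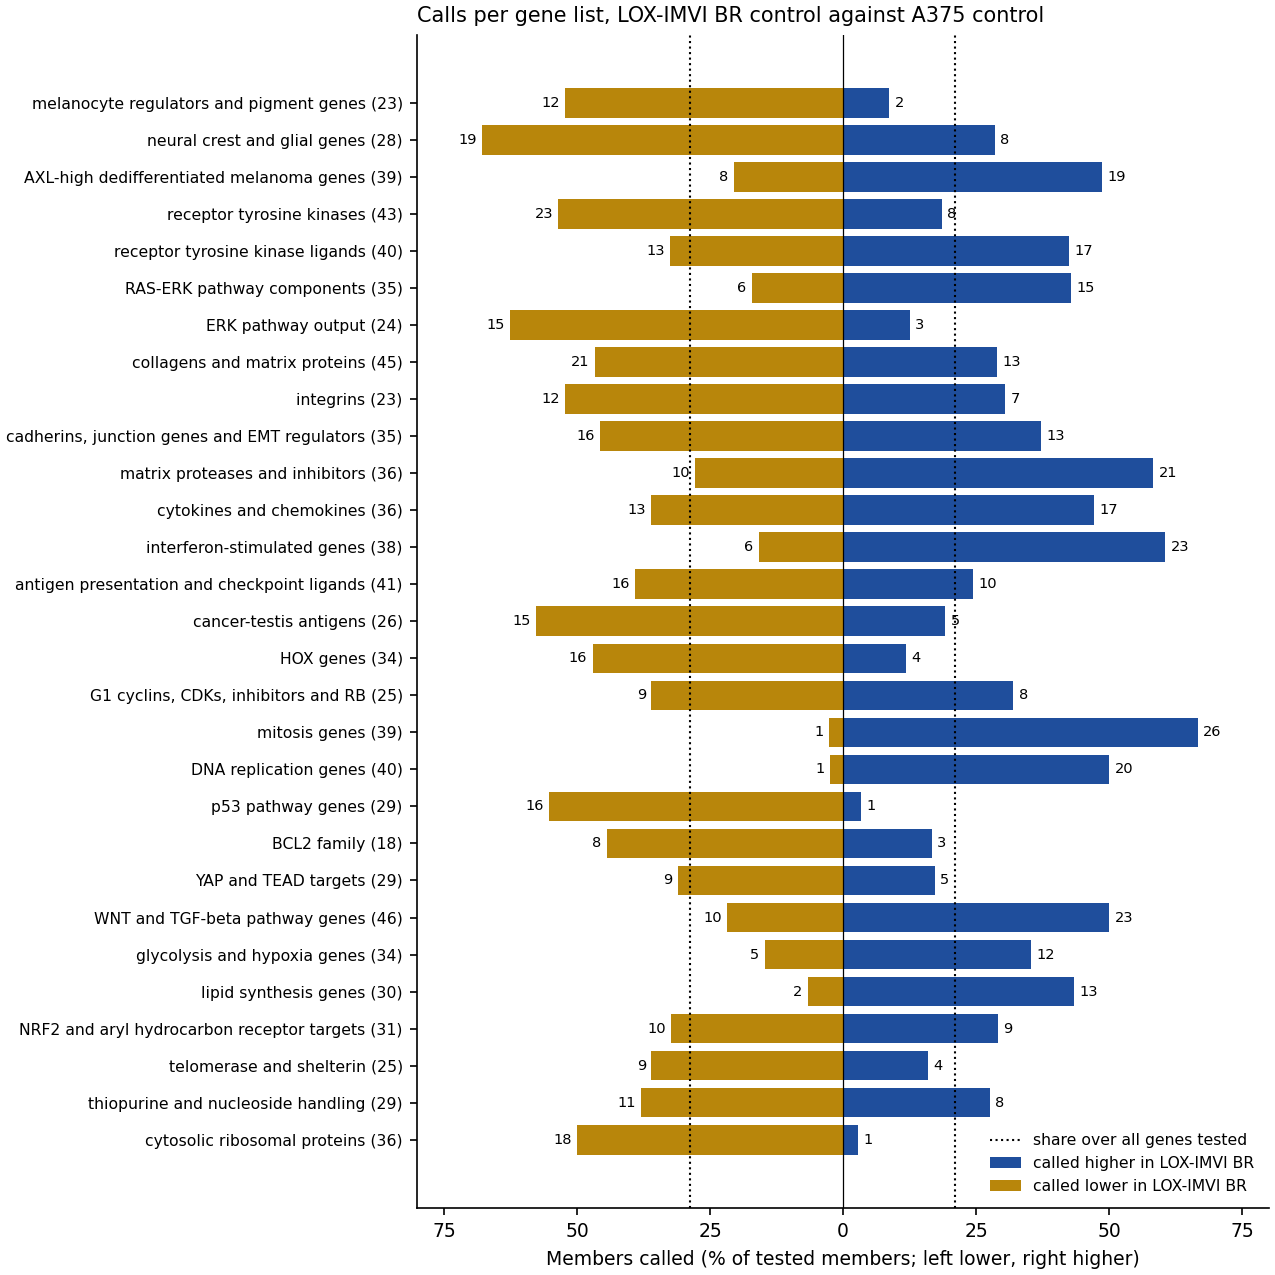
For each of 29 gene lists, the share of tested members (number in brackets) called higher in LOX-IMVI BR (blue, to the right) and lower (gold, to the left), with the number called beside each bar; dotted lines mark the shares over all genes tested, 21.1% and 28.8%. The mitosis list reached 26 higher against 1 lower, and the neural crest list 8 higher against 19 lower.

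The replicates of A375 differed from each other more than those of LOX-IMVI BR, by a median of 0.488 against 0.0747 on the log2 scale per gene. The LOX-IMVI BR replicates were close to counting error, so the p-values may rest partly on technical spread. Their median chi-square per gene was 0.589, against 0.455 for counting error alone and 14.1 in A375. This chi-square used unscaled totals, so the A375 value includes the difference between its scaling factors, 1.04 and 0.746. The difference between the lines also moved with base composition. Its median fell from 0.95 in the eighth of genes with the lowest GC content to -0.74 in the eighth with the highest. With that trend removed from each library, 4197 of 14032 genes (29.9%) were called higher and 4696 (33.5%) lower. List medians are given as scaled unless stated, although removing the trend moved several of them. The part of base composition in any result was not tested beyond that fit. Where it or a left-out library ended a call or moved a count or a called log2 difference by over 1.5 times, that value stands beside the result, apart from called genes whose difference the GC correction moved by over 1.5 times and left called. Of those named, the corrected difference was -0.95 for ARAF, -1.12 for ITGA3, 1.69 for ITGA5, 1.61 for OAS3, -0.74 for CDK4, -0.75 for ENO1, -0.76 for TERF2, -0.75 for RPLP0 and -0.98 for CD68. On simulated counts for the control comparison, run on 26432 genes, the test recovered 84% of 4-fold and 5% of 2-fold changes. The simulation changed 100 genes at each fold, with 1 spread for all genes, while the lines differed at 49.8% of genes. With so few changes the adjusted threshold is stricter, so these shares do not measure recovery in the real comparison. A gene that was not called may still differ. Of all genes tested, 75.5% had control libraries that did not overlap between the lines, and of the genes called, 99.2%. The sequencing kit kept no strand, so overlapping genes on opposite strands share reads. Some genes that every cell uses, such as B2M and RPLP1, held at most 1 count in each of the 4 control libraries, so a gene listed at or near 0 in both lines is not evidence that the lines lack it.

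SOX10, the regulator of the melanocyte lineage, stood at 512 and 590.4 CPM in A375 and 0.502 and 0.683 CPM in LOX-IMVI BR, a log2 difference of -9.84 ± 0.49 (adjusted p = 5.3e-09), a 917-fold difference. In bulk RNA, fewer expressing cells and less RNA per cell cannot be told apart. MITF, the regulator of pigment genes, was at 45.6 and 34.5 CPM in A375 and 7.23 and 7.83 CPM in LOX-IMVI BR, a log2 difference of -2.41 ± 0.50 (adjusted p = 0.0011), so it was lower in LOX-IMVI BR but still counted in both libraries. PAX3, which acts upstream of MITF, was at 30.6 and 29.1 CPM in A375 and 35.4 and 38.5 CPM in LOX-IMVI BR, a log2 difference of 0.31 ± 0.28 (adjusted p = 0.37). Both LOX-IMVI BR libraries lay below both A375 libraries for SOX10 and MITF, and for PAX3 the groups were close to each other and not called apart, although the GC-corrected fit called it higher in LOX-IMVI BR, by 0.70. The whole list had 23 tested members, of which 2 were called higher and 12 lower, with a median of -0.92.

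The pigment genes TYR, PMEL and MLANA were at or near 0 in both lines. TYR, the enzyme that begins melanin synthesis, had 0 counts in all 4 libraries. PMEL, the fibril protein of melanosomes, was at 0.374 and 0.453 CPM in A375 and 0.251 and 0.319 CPM in LOX-IMVI BR. MLANA, a melanosomal antigen, was at 0.262 and 0.181 CPM in A375 and 0.653 and 0.410 CPM in LOX-IMVI BR. Neither PMEL nor MLANA was called (adjusted p = 0.51 and 0.19). By these markers, A375 had SOX10 with TYR, PMEL and MLANA at or near 0, and LOX-IMVI BR had under 1 CPM of SOX10 as well. Levels at or near 0 in both lines do not show that either line lacks these pigment genes.

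Several genes of melanosome transport and of the wider MITF program were counted well. MLPH, which links melanosomes to the actin motor, was at 34.4 and 24.8 CPM in A375 and 0.0502 and 0.0910 CPM in LOX-IMVI BR, a ratio of 441 with a 95% counting interval of 151 to 2142. GPNMB, a melanosomal glycoprotein, was at 46.3 and 51.1 CPM in A375 and 3.26 and 3.69 CPM in LOX-IMVI BR, a log2 difference of -3.80 ± 0.31 (adjusted p = 1.5e-07). EDNRB, the endothelin receptor of melanoblasts, was at 13.1 and 18.0 CPM in A375 and 1.46 and 1.37 CPM in LOX-IMVI BR, a log2 difference of -3.45 ± 0.32 (adjusted p = 6.6e-07). OCA2, a melanosomal transporter, and RAB38, a GTPase of melanosome cargo, were also lower, at -3.28 and -1.61 on the log2 scale. In the opposite direction, RAB27A, the GTPase that MLPH binds, was at 5.53 and 3.89 CPM in A375 and 35.7 and 31.1 CPM in LOX-IMVI BR, a log2 difference of 2.80 ± 0.37 (adjusted p = 2.1e-05), with both LOX-IMVI BR libraries above both of A375. BCL2A1, an anti-apoptotic MITF target, was at 0.187 and 0.362 CPM in A375 and 2.66 and 2.96 CPM in LOX-IMVI BR, a log2 difference of 3.49 ± 0.47 (adjusted p = 3.6e-05). MYO5A, the motor that MLPH recruits, was at 38.8 and 27.9 CPM in A375 and 40.4 and 39.0 CPM in LOX-IMVI BR and was not called, a log2 difference of 0.25 ± 0.39 (adjusted p = 0.62). Parts of 1 transport complex thus lay in 3 positions, with MLPH lower, RAB27A higher and MYO5A not called apart.

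The M-box was searched in the promoters of these genes to see which carry the element MITF is known to bind. The letters searched were TCATGTG, on both strands, in the 250 bases before and 50 bases after each RefSeq start (build GRCh38.p14). Of 24 melanocyte promoters found in RefSeq, 6 (25%) held it, against 2.99% of all 27305 promoters; the shorter E-box CATGTG, which lies within it, was in 10 (41.7%) against 11.2%. The promoters of TYR, GPNMB and BCL2A1 are shown because their genes took 3 different courses. The M-box, or its reverse complement CACATGA, is in capitals, and each sequence reads along the gene's strand.
TYR promoter, chr11:89177625-89177924, plus strand: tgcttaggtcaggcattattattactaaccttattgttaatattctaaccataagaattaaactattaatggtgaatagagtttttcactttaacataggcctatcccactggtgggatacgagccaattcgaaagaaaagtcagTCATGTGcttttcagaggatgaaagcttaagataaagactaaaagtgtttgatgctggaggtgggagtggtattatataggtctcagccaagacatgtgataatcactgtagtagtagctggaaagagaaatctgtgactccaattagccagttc
GPNMB promoter, chr7:23246525-23246824, plus strand: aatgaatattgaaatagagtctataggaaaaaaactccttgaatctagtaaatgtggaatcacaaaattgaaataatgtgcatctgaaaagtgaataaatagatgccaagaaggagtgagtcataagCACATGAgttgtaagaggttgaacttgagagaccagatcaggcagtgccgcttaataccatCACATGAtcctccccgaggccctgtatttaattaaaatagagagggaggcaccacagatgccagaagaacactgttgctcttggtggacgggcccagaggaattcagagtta
BCL2A1 promoter, chr15:79971147-79971446, minus strand: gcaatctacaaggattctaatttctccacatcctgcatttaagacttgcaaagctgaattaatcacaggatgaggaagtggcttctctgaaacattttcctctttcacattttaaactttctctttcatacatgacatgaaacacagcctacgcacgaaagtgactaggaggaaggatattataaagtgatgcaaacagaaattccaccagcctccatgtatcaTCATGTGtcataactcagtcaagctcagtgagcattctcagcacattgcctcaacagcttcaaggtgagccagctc
The match in TYR begins 105 bases before the start, those in GPNMB 123 and 62 bases before it, and that in BCL2A1 26 bases before it. TYR was at 0 counts, GPNMB was 14-fold lower in LOX-IMVI BR and BCL2A1 was 11.2-fold higher. The other promoters with the element were those of TYRP1, SLC24A5 and GPR143, whose genes were at 1.31 CPM or less in every control library. A match is a description of the letters only, and binding was not measured.

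Genes of the neural crest and of glia, the wider lineage of melanocytes, included 28 tested members. Of these, 8 were called higher and 19 lower, and only 1 was not called. Their median was -4.81, far from the -0.12 of all genes. NGFR, the low-affinity nerve growth factor receptor, was at 56.3 and 114 CPM in A375 and 0.151 and 0.319 CPM in LOX-IMVI BR, a log2 difference of -8.45 ± 0.57 (adjusted p = 3.1e-08). ERBB3, the neuregulin receptor of the Schwann cell lineage, was at 254 and 251 CPM in A375 and 0.301 and 0.137 CPM in LOX-IMVI BR, a log2 difference of -10.15 ± 0.48 (adjusted p = 5.3e-09). NES, an intermediate filament protein of neural stem cells, was at 255 and 379 CPM in A375 and 0.402 and 0.728 CPM in LOX-IMVI BR, a log2 difference of -9.11 ± 0.53 (adjusted p = 8.9e-09). These 3 genes were well counted in A375 and under 1 CPM in LOX-IMVI BR. L1CAM, a neural adhesion molecule, and TFAP2C, a transcription factor of the early neural crest, were lower, at -7.04 and -9.67 on the log2 scale. SOX9, a factor of crest and glial cells, was at 38.1 and 16.8 CPM in A375 and 22.5 and 23.2 CPM in LOX-IMVI BR and was not called, a log2 difference of -0.27 ± 0.35 (adjusted p = 0.53), although without replicate 2 of A375 it was called lower, at -0.73.

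The members called higher were SNAI2, ZEB2, ETS1, SOX4, TFAP2A, FOXD1, ID3 and PRRX1. SNAI2, a repressor of epithelial genes, was at 7.81 and 5.25 CPM in A375 and 924 and 878 CPM in LOX-IMVI BR, a log2 difference of 7.09 ± 0.35 (adjusted p = 5.3e-09), a 136-fold difference. ZEB2 was at 24.9 and 23.5 CPM in A375 and 157 and 157 CPM in LOX-IMVI BR, a log2 difference of 2.70 ± 0.57 (adjusted p = 0.0013), and its relative ZEB1 was at 14.1 and 20.6 CPM in A375 and 135 and 131 CPM in LOX-IMVI BR, a log2 difference of 2.94 ± 0.63 (adjusted p = 0.0016). Both LOX-IMVI BR libraries were above both A375 libraries for these genes. Without replicate 1 of A375, ZEB1 was not called (2.69). ETS1, an ERK-responsive factor, was 2.53-fold higher. SNAI1, the closest relative of SNAI2, went the other way, at 17.7 and 18.8 CPM in A375 and 0.100 and 0.182 CPM in LOX-IMVI BR, a log2 difference of -6.93 ± 0.50 (adjusted p = 5.1e-08). The 2 Snail genes thus differed in opposite directions; A375 had counts of both, and LOX-IMVI BR had under 0.2 CPM of SNAI1.

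**Figure D2:**
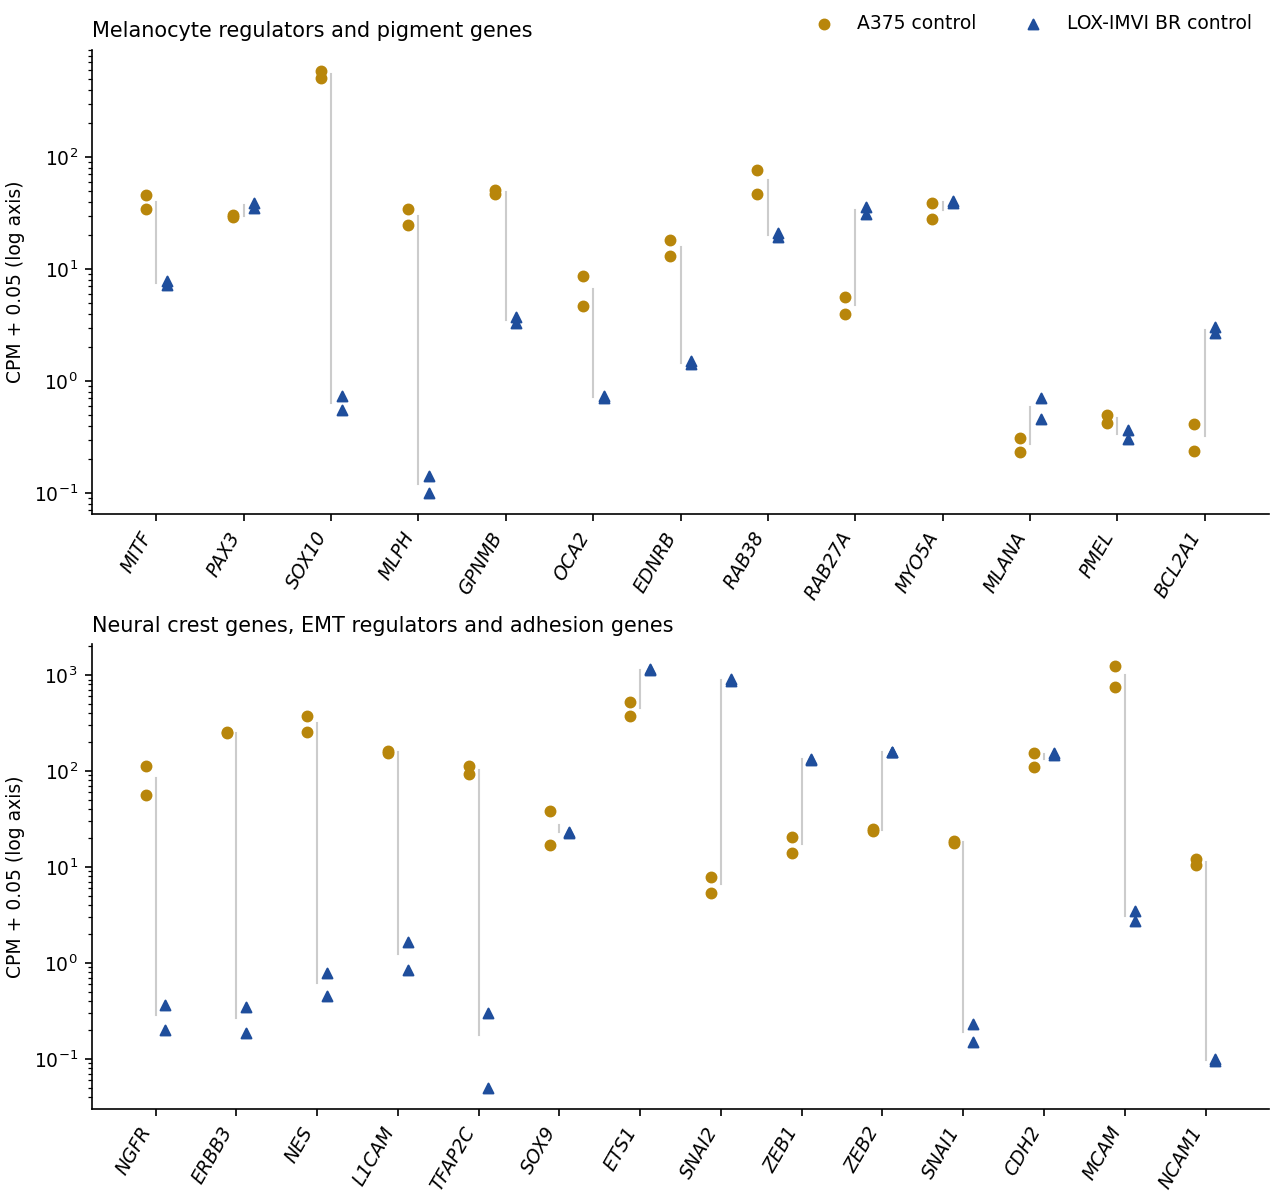
Level in each control library of melanocyte genes (top) and of neural crest, EMT and adhesion genes (bottom), as CPM plus 0.05 on a log axis; gold circles are the 2 A375 libraries, blue triangles the 2 LOX-IMVI BR libraries, and the grey line joins the means. SOX10, MLPH, NGFR, ERBB3 and NES were high in A375 and near the bottom of the axis in LOX-IMVI BR, while SNAI2, ZEB1 and ZEB2 were higher in LOX-IMVI BR.

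The list of genes known to mark AXL-high, dedifferentiated melanoma had 39 tested members, of which 19 were called higher and 8 lower, with a median of 0.83. AXL itself, the receptor that names this state, was among the lower members. It was at 1399.7 and 1646 CPM in A375 and 442 and 427 CPM in LOX-IMVI BR, a log2 difference of -1.81 ± 0.27 (adjusted p = 7.3e-05), so it was abundant in both lines and 3.51-fold higher in A375. WNT5A, a noncanonical WNT ligand, was at 24.4 and 14.1 CPM in A375 and 494 and 473 CPM in LOX-IMVI BR, a log2 difference of 4.64 ± 0.35 (adjusted p = 7.1e-08). CCDC80, a matrix protein, was at 5.53 and 6.97 CPM in A375 and 292 and 289.7 CPM in LOX-IMVI BR, a log2 difference of 5.55 ± 0.33 (adjusted p = 9.7e-09). F2RL1, a protease-activated receptor, was 31.9-fold higher and VIM, the mesenchymal intermediate filament, 3.61-fold higher. THBS1, thrombospondin, was at 548 and 242 CPM in A375 and 11.3 and 11 CPM in LOX-IMVI BR, a log2 difference of -5.14 ± 0.39 (adjusted p = 9.2e-08). S100A4, a calcium-binding protein of motile cells, was at 75.4 and 215 CPM in A375 and 0.753 and 0.774 CPM in LOX-IMVI BR, a log2 difference of -7.55 ± 0.55 (adjusted p = 5.8e-08). The list therefore split within itself, with WNT5A and CCDC80 on 1 side and AXL, THBS1 and S100A4 on the other.

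The AP-1 motif, the element bound by FOS and JUN factors, was searched in the same way as TGANTCA. It was in 3 of 30 promoters of the AXL-high list (10%), against 7.76% of all promoters, which is a similar share. The 3 genes were FOSL2, PLAUR and IL1A. IL1A, the cytokine interleukin 1 alpha, is named here because its promoter held the motif, in 2 places; it was at 12.8 and 21.1 CPM in A375 and 194 and 176 CPM in LOX-IMVI BR, a log2 difference of 3.45 ± 0.41 (adjusted p = 7.2e-06). Its promoter is shown with both motifs in capitals, the first 12 bases before the start and the second within the first bases transcribed.
IL1A promoter, chr2:112784444-112784743, minus strand: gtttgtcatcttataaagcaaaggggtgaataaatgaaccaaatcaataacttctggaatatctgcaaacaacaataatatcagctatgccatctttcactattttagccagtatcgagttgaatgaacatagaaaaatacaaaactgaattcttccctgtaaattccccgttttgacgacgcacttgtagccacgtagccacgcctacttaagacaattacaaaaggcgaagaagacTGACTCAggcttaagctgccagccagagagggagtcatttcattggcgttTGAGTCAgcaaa

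Receptor tyrosine kinases, which pass growth factor signals to the RAS-ERK pathway, were more often lower than higher in LOX-IMVI BR. Of 43 tested, 8 were called higher and 23 lower, with a median of -1.81. ERBB2, the partner of ERBB3, was at 71.3 and 102 CPM in A375 and 0.502 and 0.501 CPM in LOX-IMVI BR, a log2 difference of -7.42 ± 0.46 (adjusted p = 1.7e-08). EPHA2, an ephrin receptor, was at 1488 and 2199.7 CPM in A375 and 102 and 100.3 CPM in LOX-IMVI BR, a log2 difference of -4.19 ± 0.35 (adjusted p = 2.0e-07). DDR2, a collagen receptor, was at 100.2 and 84.7 CPM in A375 and 2.16 and 2.18 CPM in LOX-IMVI BR, a log2 difference of -5.41 ± 0.39 (adjusted p = 5.0e-08). TIE1, an orphan receptor best known from endothelium, was 89.7-fold lower. PDGFRA, a platelet-derived growth factor receptor of mesenchymal cells, had the reverse pattern, at 0.935 and 0.543 CPM in A375 and 56.9 and 55.3 CPM in LOX-IMVI BR, a log2 difference of 6.15 ± 0.37 (adjusted p = 1.2e-08). Its relative PDGFRB was at 5.35 and 7.88 CPM in A375 and 1.26 and 1.09 CPM in LOX-IMVI BR, a log2 difference of -2.47 ± 0.37 (adjusted p = 6.5e-05), and so was lower. EGFR, the epidermal growth factor receptor, was at 84.0 and 32.1 CPM in A375 and 177 and 174 CPM in LOX-IMVI BR, a log2 difference of 1.6 ± 0.37 (adjusted p = 0.0024), and without replicate 1 of A375 the difference was 2.46. MET, the receptor of hepatocyte growth factor, was at 264 and 179 CPM in A375 and 241 and 231 CPM in LOX-IMVI BR and was not called, a log2 difference of 0.09 ± 0.45 (adjusted p = 0.88).

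Their ligands were split more evenly, with 17 of 40 called higher and 13 lower and a median of 0.05. TGFA, a ligand of EGFR, was at 787 and 385 CPM in A375 and 0.552 and 0.364 CPM in LOX-IMVI BR, a log2 difference of -10.31 ± 0.58 (adjusted p = 7.8e-09). EREG, a second EGFR ligand, was at 0.374 and 0.543 CPM in A375 and 76.2 and 71.8 CPM in LOX-IMVI BR, a log2 difference of 7.39 ± 0.39 (adjusted p = 6.1e-09). The lines thus expressed different ligands of 1 receptor, TGFA in A375 and EREG in LOX-IMVI BR. FGF5 was at 1.91 and 1.45 CPM in A375 and 216 and 208 CPM in LOX-IMVI BR, a log2 difference of 6.95 ± 0.43 (adjusted p = 1.6e-08), and FGF2 at 33.2 and 29.1 CPM in A375 and 568 and 569 CPM in LOX-IMVI BR, a log2 difference of 4.19 ± 0.45 (adjusted p = 2.7e-06); both are fibroblast growth factors. VEGFA, the angiogenic factor, was 8.95-fold higher. GAS6, the ligand of AXL, was at 67.1 and 87.5 CPM in A375 and 4.47 and 4.55 CPM in LOX-IMVI BR, a log2 difference of -4.10 ± 0.35 (adjusted p = 2.5e-07). NRG2, a neuregulin that binds ERBB3, and EFNA1, an ephrin that binds EPHA2, were 41.0-fold and 122-fold lower. Among the genes named, ligand and receptor were both lower in LOX-IMVI BR for GAS6 with AXL, NRG2 with ERBB3 and EFNA1 with EPHA2. EREG and EGFR were both higher, and TGFA was lower while EGFR was higher. Pairs were not counted over the lists, in which 53.5% of tested receptors and 32.5% of tested ligands were called lower.

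Of the components of the RAS-ERK pathway itself, 35 were tested; 15 were called higher and 6 lower, with a median of 0.61. BRAF, the kinase itself, was at 13.6 and 10.5 CPM in A375 and 10.1 and 10.7 CPM in LOX-IMVI BR and was not called, a log2 difference of -0.22 ± 0.30 (adjusted p = 0.57), but the GC-corrected fit called it lower, at -0.89. MAP3K8, a kinase that can activate MEK without RAF, was at 0.449 and 0.272 CPM in A375 and 6.78 and 6.65 CPM in LOX-IMVI BR, a log2 difference of 4.09 ± 0.39 (adjusted p = 7.2e-07). ARAF, a relative of BRAF, was 3.08-fold lower. GAB1, a docking protein of receptor signalling, was at 1.35 and 0.996 CPM in A375 and 8.89 and 10.4 CPM in LOX-IMVI BR, a log2 difference of 2.99 ± 0.40 (adjusted p = 2.5e-05), and PIK3R1, the regulatory subunit of PI3 kinase, was 6.63-fold higher. RRAS2, a RAS-related GTPase, was 3.15-fold higher as scaled, a call that the GC correction ended (0.63). Without replicate 2 of A375, 9 components were called higher, and without either LOX-IMVI BR replicate 3 were called lower.

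Genes that the ERK pathway switches on were lower in LOX-IMVI BR as a group, 15 of 24 against 3 higher, with a median of -1.83. DUSP4, a phosphatase that shuts ERK off, was at 391 and 518 CPM in A375 and 0.552 and 0.637 CPM in LOX-IMVI BR, a log2 difference of -9.56 ± 0.43 (adjusted p = 5.0e-09), a 755-fold difference. DUSP6, the cytosolic ERK phosphatase, was at 271 and 307 CPM in A375 and 66.1 and 58.5 CPM in LOX-IMVI BR, a log2 difference of -2.21 ± 0.28 (adjusted p = 1.2e-05). DUSP5 was 18.3-fold lower. SPRY2, a feedback inhibitor of receptor signalling, was at 392 and 401 CPM in A375 and 32.3 and 34.1 CPM in LOX-IMVI BR, a log2 difference of -3.58 ± 0.31 (adjusted p = 2.7e-07), and SPRY1 was 63.3-fold lower. EGR3, an immediate early factor, was at 52.2 and 26.8 CPM in A375 and 0.151 and 0 CPM in LOX-IMVI BR, a ratio of 625 with a counting interval of 214 to 3034. The AP-1 factor FOSL1 was at 2078 and 1029 CPM in A375 and 577 and 558 CPM in LOX-IMVI BR, a log2 difference of -1.45 ± 0.37 (adjusted p = 0.0045), and this call ended with the GC correction (-0.87) and without replicate 1 of A375 (-0.85). CCND1, cyclin D1, was at 976 and 709 CPM in A375 and 500.2 and 471 CPM in LOX-IMVI BR, a log2 difference of -0.80 ± 0.27 (adjusted p = 0.022), and its call ended with the GC correction (-0.40) and without either LOX-IMVI BR replicate (-0.83 and -0.74). MYC was at 379 and 472 CPM in A375 and 424 and 410.2 CPM in LOX-IMVI BR and was not called (-0.03), yet the GC-corrected fit called it higher in LOX-IMVI BR, at 0.57. Activity of the kinase was not measured. Without either LOX-IMVI BR replicate, 1 output gene was called higher.

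**Figure D3:**
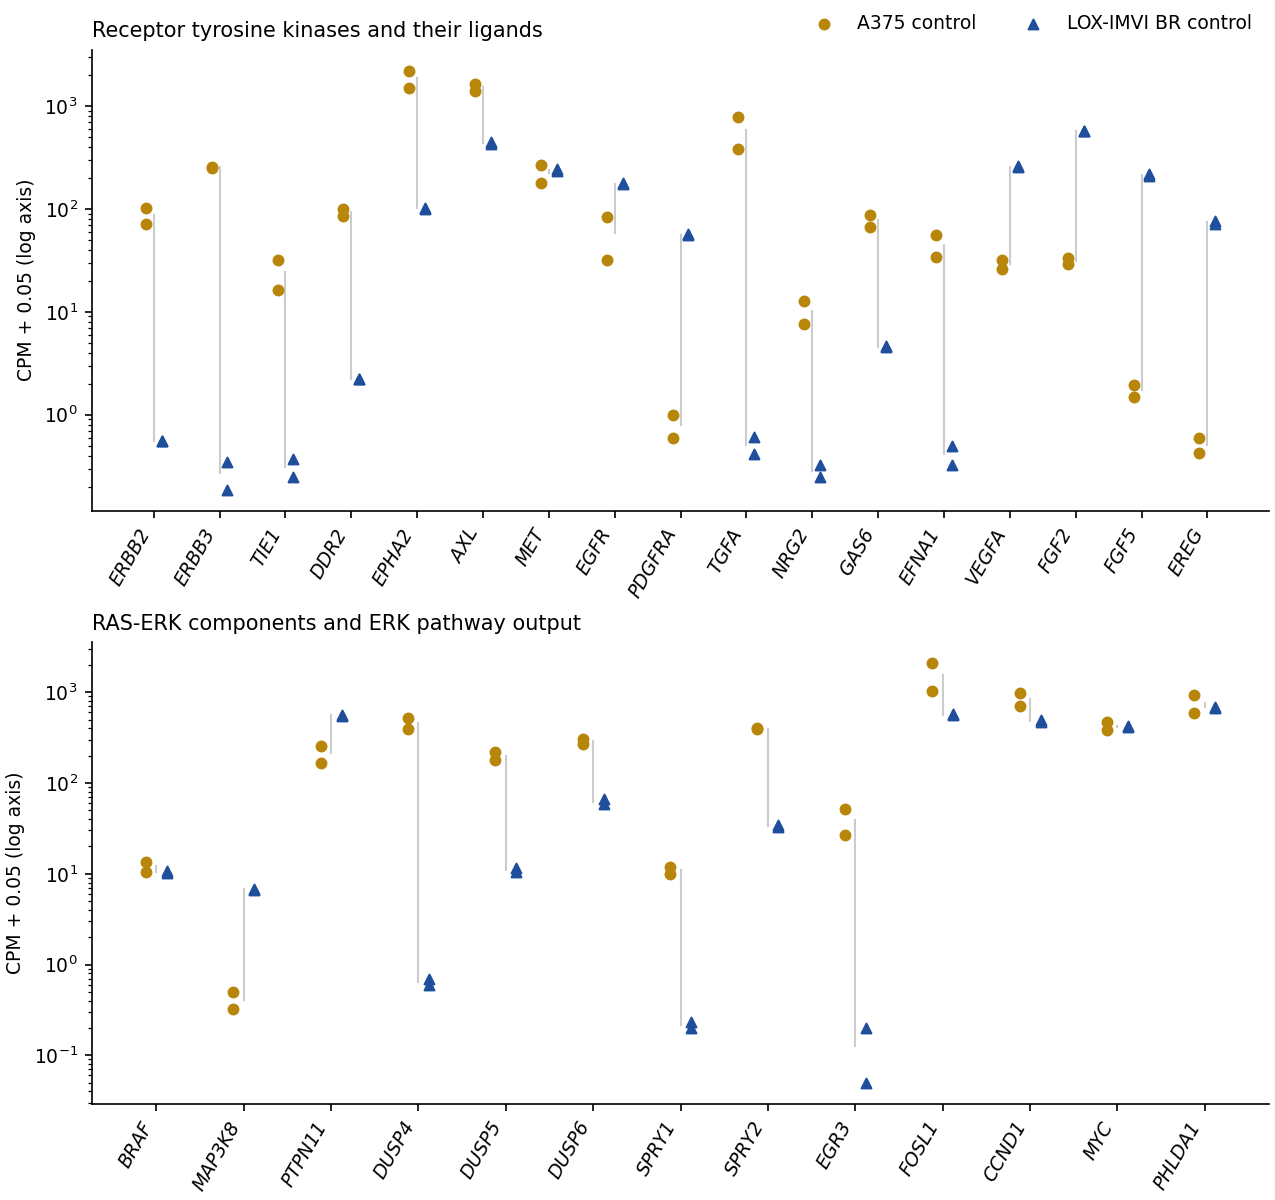
Level in each control library of receptor tyrosine kinases and ligands (top) and of RAS-ERK components and ERK output genes (bottom), as CPM plus 0.05 on a log axis; gold circles are A375, blue triangles LOX-IMVI BR, and the grey line joins the means. TGFA and EREG, both EGFR ligands, lay at opposite ends in the 2 lines, and DUSP4, SPRY1 and EGR3 were near the bottom of the axis in LOX-IMVI BR, while the libraries of both lines lay close together for BRAF, MYC and PHLDA1.

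Of the matrix genes, 13 of 45 were called higher and 21 lower (median -0.34). COL1A1, the main chain of fibrillar collagen, was at 3.07 and 3.26 CPM in A375 and 1640.4 and 1618 CPM in LOX-IMVI BR, a log2 difference of 9.01 ± 0.45 (adjusted p = 5.3e-09). POSTN, periostin, a protein of stromal matrix, was at 1.5 and 1.09 CPM in A375 and 1078 and 1069 CPM in LOX-IMVI BR, a log2 difference of 9.65 ± 0.41 (adjusted p = 4.7e-09). FBN2, a fibrillin, was at 0.935 and 0.362 CPM in A375 and 155 and 152 CPM in LOX-IMVI BR, a log2 difference of 7.74 ± 0.43 (adjusted p = 7.7e-09). The chains of collagen VI, COL6A1 and COL6A2, were 18.5-fold and 15.1-fold higher. FN1, fibronectin, was at 79.5 and 36.2 CPM in A375 and 305 and 308 CPM in LOX-IMVI BR, a log2 difference of 2.40 ± 0.39 (adjusted p = 1.5e-04). COL4A1, a chain of basement membrane collagen, was at 183 and 169 CPM in A375 and 0.502 and 0.273 CPM in LOX-IMVI BR, a log2 difference of -8.81 ± 0.50 (adjusted p = 7.9e-09), and its partner chain COL4A2 was at 355 and 543 CPM in A375 and 0.603 and 0.819 CPM in LOX-IMVI BR, a log2 difference of -9.29 ± 0.55 (adjusted p = 1.1e-08). NID1, nidogen, which joins laminin to collagen IV, was at 188 and 89.7 CPM in A375 and 0.301 and 0.319 CPM in LOX-IMVI BR, a log2 difference of -8.78 ± 0.55 (adjusted p = 1.8e-08). SPARC, a matrix glycoprotein, was at 918 and 1650.3 CPM in A375 and 2049.8 and 1937 CPM in LOX-IMVI BR and was not called, a log2 difference of 0.63 ± 0.31 (adjusted p = 0.098), although without replicate 2 of A375 it was called higher, at 1.13, as it was with the GC correction, at 0.76.

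Among the integrins, the receptors for that matrix, 7 of 23 were called higher and 12 lower, with a median of -1.22. ITGB1, the beta subunit shared by most matrix receptors, was at 189.9 and 173 CPM in A375 and 1939 and 1867 CPM in LOX-IMVI BR, a log2 difference of 3.39 ± 0.55 (adjusted p = 1.8e-04). ITGB3, the beta subunit linked to invasive melanoma, was at 206 and 209 CPM in A375 and 1.10 and 1.00 CPM in LOX-IMVI BR, a log2 difference of -7.62 ± 0.38 (adjusted p = 5.3e-09). ITGB4, the laminin receptor of hemidesmosomes, was 18.4-fold lower and ITGB2, a leukocyte integrin, 98.3-fold lower. ITGA3 was 3.55-fold lower and ITGA5, the fibronectin receptor, was 1.98-fold higher; the ITGA5 call ended without replicate 1 of A375 (0.69) and without either LOX-IMVI BR replicate (0.98 and 1.01).

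Adhesion between cells differed as well, with 13 of 35 cadherin, junction and EMT genes called higher and 16 lower (median 0.06). With the GC correction the median was -0.43. MCAM, an adhesion molecule first described in melanoma, was at 753 and 1262 CPM in A375 and 2.71 and 3.41 CPM in LOX-IMVI BR, a log2 difference of -8.36 ± 0.43 (adjusted p = 5.5e-09). NCAM1, a neural adhesion molecule, was at 12.2 and 10.5 CPM in A375 and 0.0502 and 0.0455 CPM in LOX-IMVI BR, a ratio of 244 with a counting interval of 67.3 to 2024. CADM1 differed by a ratio of 712 (197 to 5886), taken as the higher line over the lower. F11R, a tight junction protein, was 25.8-fold lower. CDH2, N-cadherin, was at 154 and 111 CPM in A375 and 153 and 148 CPM in LOX-IMVI BR and was not called, a log2 difference of 0.18 ± 0.27 (adjusted p = 0.60). CDH1, E-cadherin, had at most 1 count in each library, which does not show that either line lacks it. CD44, the hyaluronan receptor, was at 591 and 296 CPM in A375 and 998 and 945 CPM in LOX-IMVI BR, a log2 difference of 1.13 ± 0.32 (adjusted p = 0.0084), with a difference of 1.72 without replicate 1 of A375 and 0.72 without replicate 2.

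Proteases that remodel the matrix, and their inhibitors, were more often higher in LOX-IMVI BR. Of 36 tested, 21 were called higher and 10 lower, with a median of 1.32. FAP, the surface protease of activated fibroblasts, was at 0.112 and 0.0905 CPM in A375 and 71.7 and 70.0 CPM in LOX-IMVI BR, a log2 difference of 9.31 ± 0.47 (adjusted p = 5.5e-09). MMP2, a gelatinase, was at 175 and 267 CPM in A375 and 1687 and 1655 CPM in LOX-IMVI BR, a log2 difference of 2.92 ± 0.33 (adjusted p = 5.3e-06). ADAM12, a metalloprotease of mesenchymal cells, was 103-fold higher, CTSB, cathepsin B, 4.18-fold higher, and SERPINB2, an inhibitor of plasminogen activators, 127-fold higher. TIMP3, the matrix-bound inhibitor of metalloproteases, was at 390.0 and 365 CPM in A375 and 1.86 and 1.59 CPM in LOX-IMVI BR, a log2 difference of -7.77 ± 0.40 (adjusted p = 5.7e-09). SERPINE2, an inhibitor of thrombin and plasminogen activators, was at 320.3 and 393 CPM in A375 and 3.97 and 3.78 CPM in LOX-IMVI BR, a log2 difference of -6.52 ± 0.35 (adjusted p = 6.1e-09). The inhibitors thus went both ways, SERPINB2 higher and TIMP3 and SERPINE2 lower.

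Of 36 cytokine and chemokine genes, 17 were called higher and 13 lower. Their median was 1.32, or 0.60 with genes at 0 in a line set to their limit. CSF3, the granulocyte growth factor, was at 0.299 and 0.362 CPM in A375 and 277 and 270.2 CPM in LOX-IMVI BR, a log2 difference of 9.71 ± 0.47 (adjusted p = 5.3e-09). IL1B, interleukin 1 beta, was at 3.33 and 3.62 CPM in A375 and 422 and 403 CPM in LOX-IMVI BR, a log2 difference of 6.89 ± 0.35 (adjusted p = 5.5e-09). The groups were far apart in both genes. The most abundant cytokines of A375 were lower in LOX-IMVI BR. IL24 was at 1731 and 3072 CPM in A375 and 8.59 and 9.83 CPM in LOX-IMVI BR, a log2 difference of -8.03 ± 0.43 (adjusted p = 6.7e-09). IL11, a gp130 cytokine, was at 787 and 957 CPM in A375 and 26.8 and 28.5 CPM in LOX-IMVI BR, a log2 difference of -4.98 ± 0.37 (adjusted p = 7.2e-08). GDF15, a stress-induced cytokine, was at 687 and 1506 CPM in A375 and 44.3 and 43.0 CPM in LOX-IMVI BR, a log2 difference of -4.65 ± 0.41 (adjusted p = 3.5e-07). TSLP, an epithelial cytokine, was at 22.8 and 17.6 CPM in A375 and 0 and 0 CPM in LOX-IMVI BR, at least 297-fold lower, taking 3 counts over the group as the limit for LOX-IMVI BR.

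Interferon-stimulated genes were higher in LOX-IMVI BR as a group, 23 of 38 against 6 lower, with a median of 1.54. IFIT1, which binds foreign RNA, was at 1.94 and 2.44 CPM in A375 and 33.2 and 36.8 CPM in LOX-IMVI BR, a log2 difference of 4.01 ± 0.36 (adjusted p = 4.3e-07). IFI44L was at 0.972 and 0.996 CPM in A375 and 20.9 and 21.7 CPM in LOX-IMVI BR, a log2 difference of 4.43 ± 0.34 (adjusted p = 1.1e-07). OASL and HERC5, further antiviral genes, were 28.5-fold and 24.1-fold higher, and the transducer STAT2 3.43-fold. OAS3 was 1.98-fold higher, a call that ended without either LOX-IMVI BR replicate (0.98 and 1.01). MX2, an antiviral GTPase, was at 67.0 and 75.9 CPM in A375 and 2.26 and 1.91 CPM in LOX-IMVI BR, a log2 difference of -5.09 ± 0.36 (adjusted p = 4.3e-08), against the direction of the list.

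Antigen presentation showed 10 of 41 genes higher and 16 lower (median -0.52, or -0.18 with the GC correction). CIITA, the master regulator of class II genes, was at 27.0 and 24.3 CPM in A375 and 0.100 and 0.0455 CPM in LOX-IMVI BR, a ratio of 366 with a counting interval of 125 to 1778. CD74, the invariant chain that fills the class II groove, was at 1104 and 1043 CPM in A375 and 2.71 and 2.28 CPM in LOX-IMVI BR, a log2 difference of -8.75 ± 0.43 (adjusted p = 5.3e-09). HLA-DRA, a class II chain, was at 189 and 467 CPM in A375 and 0.352 and 0.546 CPM in LOX-IMVI BR, a log2 difference of -9.49 ± 0.56 (adjusted p = 9.9e-09). HLA-DRB1 was 167-fold lower, with reads that near-identical class II genes may share. Class II was thus counted in A375 and under 3 CPM in the LOX-IMVI BR libraries. Of the class I genes, HLA-E was at 202 and 543 CPM in A375 and 601 and 589 CPM in LOX-IMVI BR and was not called, a log2 difference of 0.68 ± 0.37 (adjusted p = 0.14), but it was called higher with the GC correction (1.38) and without replicate 2 of A375 (1.56). ERAP2, a peptidase that trims class I peptides, was 29.5-fold higher. CD274, the checkpoint ligand PD-L1, was at 317 and 141 CPM in A375 and 27.6 and 24.9 CPM in LOX-IMVI BR, a log2 difference of -3.12 ± 0.41 (adjusted p = 2.0e-05), with A375 above LOX-IMVI BR in every library. Without either LOX-IMVI BR replicate, 6 genes of the list were called higher.

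**Figure D4:**
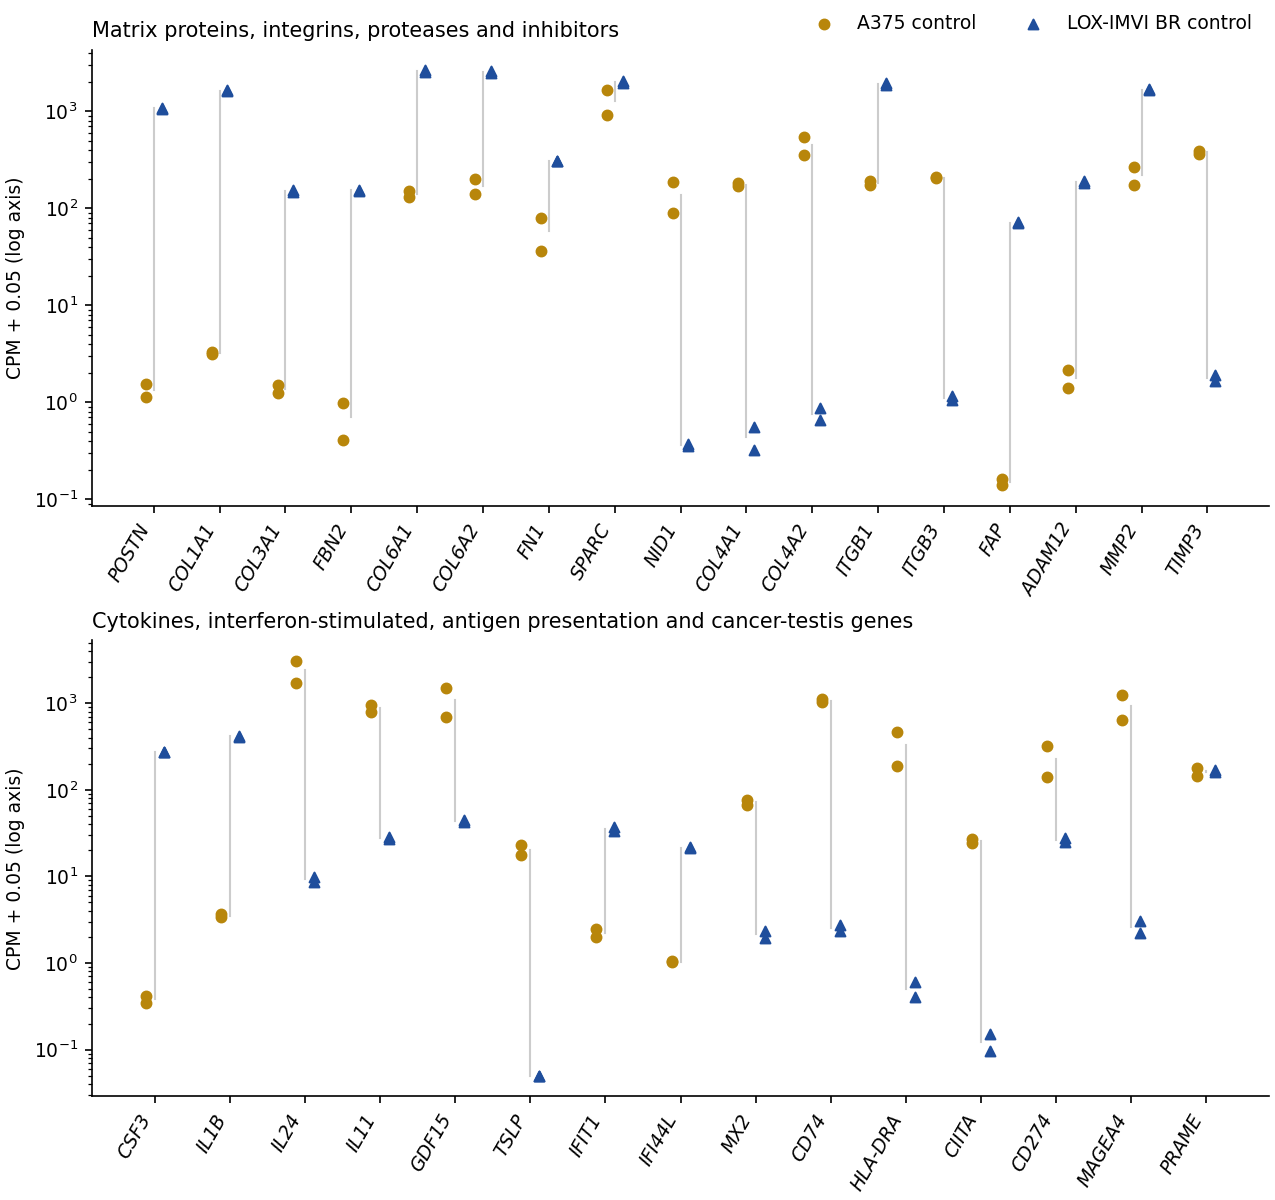
Level in each control library of matrix, integrin and protease genes (top) and of cytokine, interferon-stimulated, antigen presentation and cancer-testis genes (bottom), as CPM plus 0.05 on a log axis; gold circles are A375, blue triangles LOX-IMVI BR, and the grey line joins the means. POSTN, COL1A1 and FAP were at 3.26 CPM or less in A375, and NID1, COL4A1, COL4A2, CD74, HLA-DRA and CIITA were low in LOX-IMVI BR.

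Cancer-testis antigens, which are normally silent outside the germ line, were mostly lower in LOX-IMVI BR, 15 of 26 tested against 5 higher (median -2.33). With the GC correction the median was -0.81. MAGEA4 was at 643 and 1236 CPM in A375 and 2.16 and 3 CPM in LOX-IMVI BR, a log2 difference of -8.50 ± 0.46 (adjusted p = 6.8e-09). MAGEC2 was at 293 and 491 CPM in A375 and 0.552 and 0.546 CPM in LOX-IMVI BR, a log2 difference of -9.46 ± 0.49 (adjusted p = 5.5e-09). PAGE5 was 436-fold lower, and near-identical members of these families share reads. DDX43, a helicase of the germ line, went the other way, at 0.0748 and 0.0905 CPM in A375 and 45.3 and 44.1 CPM in LOX-IMVI BR, a ratio of 563 with a counting interval of 192 to 2733. PRAME, a melanoma antigen, was at 145 and 180.1 CPM in A375 and 169 and 162 CPM in LOX-IMVI BR and was not called as scaled (0.03), although the GC-corrected fit called it higher, at 0.61. MAGEA12 was not called either, at 148 and 323 CPM in A375 and 214 and 216 CPM in LOX-IMVI BR, and it was called lower without replicate 1 of A375 (-0.58).

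The HOX genes, which give cells their position along the body axis, showed 4 of 34 higher and 16 lower (median -0.66). With the GC correction 9 were higher and 14 lower, and the median was -0.07. HOXC13 was at 28.6 and 40.7 CPM in A375 and 0.151 and 0.0910 CPM in LOX-IMVI BR, a log2 difference of -8.10 ± 0.54 (adjusted p = 2.9e-08). HOXB13 was at 11.8 and 19.5 CPM in A375 and 0.0502 and 0.0455 CPM in LOX-IMVI BR, a ratio of 294 with a counting interval of 80.9 to 2432. HOXB9 was 5.58-fold lower. HOXB2 and HOXD13 were not called as scaled, HOXB2 at 71.0 and 78.7 CPM in A375 and 74.7 and 69.4 CPM in LOX-IMVI BR and HOXD13 at 42.2 and 64.5 CPM in A375 and 48.0 and 43.7 CPM in LOX-IMVI BR. The GC-corrected fit called HOXB2 higher, at 0.59.

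Genes at the CDKN2A locus differed in opposite directions. CDKN2A, which encodes the inhibitors p16 and ARF, was at 12.4 and 35.7 CPM in A375 and 0 and 0 CPM in LOX-IMVI BR, at least 268-fold lower. CDKN2B, the neighbouring gene for the inhibitor p15, was at 0.0374 and 0.272 CPM in A375 and 87.5 and 85.3 CPM in LOX-IMVI BR, a log2 difference of 9.52 ± 0.58 (adjusted p = 1.3e-08). MTAP, a methionine salvage enzyme on the other side of CDKN2A, was at 190.4 and 74.2 CPM in A375 and 4.42 and 4.87 CPM in LOX-IMVI BR, a log2 difference of -4.83 ± 0.49 (adjusted p = 1.4e-06). A375 thus had counts for CDKN2A and MTAP and nearly none for CDKN2B, and LOX-IMVI BR had counts for CDKN2B, none for CDKN2A and few for MTAP. The other G1 genes were split, 8 of 25 in the whole list higher and 9 lower (median 0.07). CDKN1C and CDKN2D, further inhibitors of cyclin-dependent kinases, were 25.9-fold and 6.77-fold lower, and CCND2, cyclin D2, was at 3.10 and 1.36 CPM in A375 and 0.151 and 0.137 CPM in LOX-IMVI BR, a log2 difference of -3.98 ± 0.57 (adjusted p = 4.6e-05). CDK4 was at 337 and 919 CPM in A375 and 246 and 234 CPM in LOX-IMVI BR, a log2 difference of -1.39 ± 0.38 (adjusted p = 0.0066), a call that ended without replicate 2 of A375 (-0.49) and without replicate 2 of LOX-IMVI BR (-1.34). Without replicate 1 of LOX-IMVI BR, 5 genes of the list were called higher.

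Mitosis genes were higher in LOX-IMVI BR, 26 of 39 against 1 lower, with a median of 1.17. PLK1, the polo kinase of mitotic entry, was at 65.7 and 86.9 CPM in A375 and 238 and 238 CPM in LOX-IMVI BR, a log2 difference of 1.64 ± 0.28 (adjusted p = 2.3e-04). KIF20A, a kinesin of cytokinesis, was at 28.7 and 36.3 CPM in A375 and 208 and 206 CPM in LOX-IMVI BR, a log2 difference of 2.67 ± 0.29 (adjusted p = 3.3e-06). CCNA2, cyclin A2, was 3.48-fold higher and FOXM1, the transcription factor of this program, 3.33-fold higher. TOP2A, a topoisomerase, was at 90.3 and 201 CPM in A375 and 805 and 773 CPM in LOX-IMVI BR, a log2 difference of 2.44 ± 0.60 (adjusted p = 0.0039), a call that ended without replicate 1 of A375 (1.98). MKI67, the proliferation marker, was at 138 and 67.4 CPM in A375 and 715 and 732 CPM in LOX-IMVI BR, a log2 difference of 2.81 ± 0.61 (adjusted p = 0.0017), a call that ended without replicate 2 of A375 (2.39). The count depended on 1 library: without replicate 1 of A375, 13 mitosis genes were called higher. The 1 lower call was lost (0 genes) without replicate 2 of A375, without either LOX-IMVI BR replicate and with the GC correction.

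DNA replication genes went the same way, with 20 of 40 higher and 1 lower (median 0.80). MCM3 and MCM4, subunits of the replicative helicase, were 3.06-fold and 2.87-fold higher. UHRF1, which couples replication to DNA methylation, was at 65.1 and 41.6 CPM in A375 and 305 and 310.1 CPM in LOX-IMVI BR, a log2 difference of 2.53 ± 0.31 (adjusted p = 9.6e-06). RRM2, the regulated subunit of ribonucleotide reductase, was at 78.5 and 45.9 CPM in A375 and 303 and 284 CPM in LOX-IMVI BR, a log2 difference of 2.24 ± 0.30 (adjusted p = 2.6e-05). MCM7 was at 415 and 807 CPM in A375 and 447 and 443 CPM in LOX-IMVI BR and was not called, a log2 difference of -0.46 ± 0.31 (adjusted p = 0.24), but without replicate 1 of A375 it was called lower (-0.85). Without replicate 1 or 2 of LOX-IMVI BR, 11 and 13 were called higher, and without replicate 1 of A375 6 were called lower, as were 2 with the GC correction. Growth rate was not measured.

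Genes of the p53 pathway were lower in LOX-IMVI BR, 16 of 29 against 1 higher, with a median of -1.09. GADD45A, a growth arrest gene, was at 551 and 745 CPM in A375 and 43.5 and 40.1 CPM in LOX-IMVI BR, a log2 difference of -3.95 ± 0.32 (adjusted p = 1.5e-07). BTG2, an antiproliferative cofactor, was at 161 and 241 CPM in A375 and 4.17 and 2.96 CPM in LOX-IMVI BR, a log2 difference of -5.82 ± 0.39 (adjusted p = 2.9e-08). AEN, a nuclease of apoptosis, was at 471 and 989 CPM in A375 and 90.7 and 90.9 CPM in LOX-IMVI BR, a log2 difference of -3.01 ± 0.36 (adjusted p = 7.9e-06). SESN2, a stress sensor that restrains mTORC1, was 9.31-fold lower. The number of higher genes moved between 0 and 4 when single libraries were left out and was 4 with the GC correction.

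In the BCL2 family, which decides on apoptosis, 3 of 18 were called higher and 8 lower (median -0.81). With the GC correction 5 were higher and 7 lower, and the median was -0.42. MCL1, an anti-apoptotic member, was at 1927 and 1193 CPM in A375 and 593 and 580.4 CPM in LOX-IMVI BR, a log2 difference of -1.41 ± 0.34 (adjusted p = 0.0029). BCL2L1, which encodes BCL-XL, was at 78.6 and 146 CPM in A375 and 23.7 and 21.0 CPM in LOX-IMVI BR, a log2 difference of -2.33 ± 0.35 (adjusted p = 6.6e-05). PMAIP1, the pro-apoptotic NOXA, was 5.23-fold lower, and HRK, a second pro-apoptotic member, was at 3.14 and 2.17 CPM in A375 and 0 and 0 CPM in LOX-IMVI BR, at least 39.9-fold lower. BMF, also pro-apoptotic, was 3.65-fold higher. BAX, an executor of apoptosis, was at 93.4 and 128 CPM in A375 and 123 and 123 CPM in LOX-IMVI BR and was not called as scaled (0.16), but it was called higher with the GC correction, at 0.85. Members of both functions were thus lower in LOX-IMVI BR.

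WNT and TGF-beta genes were higher on balance, 23 of 46 against 10 lower, with a median of 1.11. TGFBR2, the type II TGF-beta receptor, was at 104 and 83.2 CPM in A375 and 898 and 854 CPM in LOX-IMVI BR, a log2 difference of 3.23 ± 0.29 (adjusted p = 5.0e-07). SMAD3, its signal transducer, was at 117 and 82.6 CPM in A375 and 658 and 625 CPM in LOX-IMVI BR, a log2 difference of 2.68 ± 0.31 (adjusted p = 6.5e-06). WNT5B, the closest relative of WNT5A, was 46.5-fold higher. AXIN2, a feedback target of beta-catenin, was at 0.299 and 0.272 CPM in A375 and 17.0 and 17.1 CPM in LOX-IMVI BR, a log2 difference of 5.85 ± 0.41 (adjusted p = 4.4e-08). Inhibitors and a coreceptor were lower: SFRP1, a secreted WNT antagonist, was 358-fold lower, FST, follistatin, which traps activin, 164-fold, and LRP5, a WNT coreceptor, 144-fold.

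The YAP and TEAD targets, which report on cell shape and contact, were split, 5 of 29 higher and 9 lower (median -0.11). The median was 0.15 with the GC correction. With the GC correction 11 were higher, without replicate 1 of A375 8 were higher, and without replicate 1 of LOX-IMVI BR 5 were lower. ANKRD1, a sensitive target, was at 165 and 171 CPM in A375 and 0.201 and 0.0910 CPM in LOX-IMVI BR, a log2 difference of -10.13 ± 0.59 (adjusted p = 8.9e-09). CYR61, also known as CCN1, was at 578 and 613 CPM in A375 and 875 and 845 CPM in LOX-IMVI BR and was not called, a log2 difference of 0.53 ± 0.28 (adjusted p = 0.13), but the GC-corrected fit called it higher, at 0.94. NUAK2, a kinase, was 567-fold lower, and TEAD2, a DNA-binding partner of YAP, 4.84-fold higher.

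Of lipid synthesis genes, 13 of 30 were called higher and 2 lower (median 0.81); without replicate 1 of A375, 4 were lower. SCD, the stearoyl-CoA desaturase, was at 304 and 274 CPM in A375 and 1529.8 and 1470.0 CPM in LOX-IMVI BR, a log2 difference of 2.38 ± 0.28 (adjusted p = 7.4e-06). INSIG1, a sterol sensor that retains SREBP, was at 25.8 and 20.9 CPM in A375 and 353 and 345 CPM in LOX-IMVI BR, a log2 difference of 3.90 ± 0.30 (adjusted p = 9.0e-08). LSS, lanosterol synthase, was 5.16-fold higher. DHCR7, which makes cholesterol in the last step of 1 branch of the pathway, was at 41.1 and 85.1 CPM in A375 and 0.502 and 0.774 CPM in LOX-IMVI BR, a log2 difference of -6.60 ± 0.50 (adjusted p = 8.3e-08), against the direction of the list. FASN, fatty acid synthase, was called higher (1.12), a call that ended without replicate 2 of A375 (0.73) and without either LOX-IMVI BR replicate (1.13 and 1.12).

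The glycolysis and hypoxia list showed 12 of 34 higher and 5 lower (median 0.43), counts that moved with the libraries and the scaling. With the GC correction 19 were higher and 2 lower, with a median of 0.94. With replicate 2 of A375 left out 20 were higher and 3 lower, with replicate 1 of A375 left out 9 were lower, and with replicate 1 or 2 of LOX-IMVI BR left out 5 and 6 were higher and 2 and 1 lower. LDHA, lactate dehydrogenase, was at 629 and 1232 CPM in A375 and 4578 and 4257 CPM in LOX-IMVI BR, a log2 difference of 2.25 ± 0.31 (adjusted p = 3.5e-05). ADM, adrenomedullin, a hypoxia gene, was at 42.5 and 59.2 CPM in A375 and 386 and 372 CPM in LOX-IMVI BR, a log2 difference of 2.90 ± 0.32 (adjusted p = 3.8e-06). GAPDH was at 4666 and 13662 CPM in A375 and 8525 and 8483 CPM in LOX-IMVI BR, so the A375 replicates spanned the LOX-IMVI BR libraries; its difference was -0.11 with both, 0.87 without replicate 2 of A375 and -0.68 without replicate 1. ENO1, enolase, was at 4458 and 12614 CPM in A375 and 2985 and 2974 CPM in LOX-IMVI BR, a log2 difference of -1.52 ± 0.37 (adjusted p = 0.0037), and the difference was -0.58 without replicate 2 of A375.

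Cytosolic ribosomal protein genes showed the same spread. Of 36 tested, 18 were called lower and 1 higher (median -1.01), but 8 were lower without replicate 2 of A375, 7 without either LOX-IMVI BR replicate, 11 with the GC correction and 2 with the compared libraries fitted alone. RPLP0 was at 6495 and 18959 CPM in A375 and 4581 and 4570.3 CPM in LOX-IMVI BR, a log2 difference of -1.48 ± 0.38 (adjusted p = 0.0052), and at -0.50 without replicate 2 of A375. RPS6 was at 7438 and 11941 CPM in A375 and 6467 and 6172 CPM in LOX-IMVI BR and was not called, a log2 difference of -0.62 ± 0.28 (adjusted p = 0.081), but it was called lower with the GC correction (-1.0) and without replicate 1 of A375 (-0.91). The number of higher genes was 2 with the GC correction and without replicate 2 of A375.

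Oxidative stress and aryl hydrocarbon receptor targets were split, 9 of 31 higher and 10 lower (median 0.07), with 6 lower without either LOX-IMVI BR replicate. FTH1, ferritin heavy chain, was at 574 and 649 CPM in A375 and 1913 and 1822 CPM in LOX-IMVI BR, a log2 difference of 1.61 ± 0.30 (adjusted p = 4.2e-04). ABCC3, a drug exporter, was at 62.4 and 62.4 CPM in A375 and 1.26 and 0.774 CPM in LOX-IMVI BR, a log2 difference of -5.94 ± 0.40 (adjusted p = 3.1e-08). CYP1A1, the classic receptor target, was 33.0-fold lower at low counts.

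Because both compounds of the study act on telomerase, its genes were also listed. TERT, the catalytic subunit, was at 9.46 and 3.89 CPM in A375 and 9.29 and 12 CPM in LOX-IMVI BR and was not called, a log2 difference of 0.64 ± 0.43 (adjusted p = 0.23), although it was called higher with the GC correction (1.14) and without replicate 1 of A375 (1.45). Of 25 telomerase and shelterin genes, 4 were called higher and 9 lower (median -0.34); without replicate 2 of LOX-IMVI BR 5 were lower, and without either of its replicates 1 was higher. DKC1, dyskerin, was 1.92-fold lower, a call that ended without either LOX-IMVI BR replicate (-0.97 and -0.89). TERF2, a shelterin protein, was at 74.3 and 85.7 CPM in A375 and 34.4 and 34.7 CPM in LOX-IMVI BR, a log2 difference of -1.21 ± 0.28 (adjusted p = 0.0026). DAXX, a chromatin chaperone linked to telomere maintenance without telomerase, was at 66.4 and 96.6 CPM in A375 and 324 and 328 CPM in LOX-IMVI BR, a log2 difference of 2.00 ± 0.31 (adjusted p = 8.3e-05). Of 29 genes that handle thiopurines and nucleosides, 8 were higher and 11 lower (median -0.29), and 4 were higher without replicate 1 of A375 or either LOX-IMVI BR replicate. MGMT, which repairs alkylated guanine, was at 5.05 and 14.4 CPM in A375 and 0 and 0 CPM in LOX-IMVI BR, at least 109-fold lower. SLC29A2, a nucleoside transporter, was at 39.4 and 24.8 CPM in A375 and 2.76 and 2.32 CPM in LOX-IMVI BR, a log2 difference of -3.66 ± 0.43 (adjusted p = 6.4e-06), and IMPDH1, an enzyme of guanine nucleotide synthesis, was 10.1-fold lower. ABCB1, a drug exporter, differed by a ratio of 66.9 (22.5 to 327), taken as the higher line over the lower.

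Markers of other cell types were examined beside these results, and their part in them was not tested. Fibroblast markers were split, 5 of 11 higher and 4 lower (median 0.74, or -0.15 with the GC correction). Among the higher members, COL1A1, FAP and PDGFRA have been given. COL3A1 was at 1.20 and 1.45 CPM in A375 and 154 and 148 CPM in LOX-IMVI BR. THY1 was at 0.150 and 0.0905 CPM in A375 and 39.6 and 36.1 CPM in LOX-IMVI BR. Of the 4 lower members, S100A4 has been given, and it was under 1 CPM in LOX-IMVI BR. The summed level of the list was 101 and 239 CPM in A375 and 1967 and 1932 in LOX-IMVI BR. Most of the LOX-IMVI BR sum came from COL1A1 alone, so it does not describe the list as a whole. Markers of leukocytes gave 0 of 9 higher and 4 lower; those of endothelial cells 2 of 9 and 3; those of keratinocytes 1 of 13 and 6; those of epithelial cells 1 of 8 and 5. The 1 higher epithelial call was lost (0 genes) without any 1 of the 4 libraries, and 1 endothelial marker was higher without replicate 1 of A375. The epithelial keratins KRT8 and KRT18 were 31.0-fold and 6.92-fold lower, and the leukocyte marker CD68, a lysosomal protein, was 3.21-fold lower (-0.90 without replicate 2 of A375). The summed levels were 307 and 501 CPM in A375 and 41.4 and 45.3 in LOX-IMVI BR for epithelial, 217 and 347 CPM in A375 and 86.8 and 74.9 in LOX-IMVI BR for keratinocyte, 178 and 427 CPM in A375 and 94.4 and 94.9 in LOX-IMVI BR for leukocyte and 104 and 154 CPM in A375 and 56.8 and 54.8 in LOX-IMVI BR for endothelial markers. Of the defining markers, 13 of 17 epithelial, 13 of 16 leukocyte and 6 of 12 endothelial genes were under 1 CPM in all 4 libraries, among them EPCAM, PTPRC and PECAM1, and the leukocyte genes CD2 and TYROBP had 0 counts.

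The 15 largest rises and falls by rule included genes outside the lists. PEG10, an imprinted gene of retrotransposon origin, was at 2.54 and 2.90 CPM in A375 and 3242 and 3195 CPM in LOX-IMVI BR, a log2 difference of 10.21 ± 0.38 (adjusted p = 1.6e-09). BDKRB1, a bradykinin receptor, was at 0 and 0 CPM in A375 and 16.2 and 13.9 CPM in LOX-IMVI BR, at least 189-fold higher. TDO2, a tryptophan-degrading enzyme, was at 0 and 0 CPM in A375 and 11.7 and 10.7 CPM in LOX-IMVI BR, at least 140-fold higher. On the other side, ZFP42, a transcription factor of pluripotent cells, was at 38.0 and 67.1 CPM in A375 and 0 and 0 CPM in LOX-IMVI BR, at least 649-fold lower. SLAMF7, a lymphocyte receptor, was at 21.4 and 30.0 CPM in A375 and 0 and 0 CPM in LOX-IMVI BR, at least 334-fold lower, and LRAT, which esterifies retinol, at 32.7 and 24.4 CPM in A375 and 0 and 0 CPM in LOX-IMVI BR, at least 423-fold lower. PRKAA2, a catalytic subunit of AMP-activated kinase, was at 18.1 and 16.1 CPM in A375 and 0 and 0 CPM in LOX-IMVI BR, at least 244-fold lower. Loss of counts was more often on the LOX-IMVI BR side. Of the 14419 symbol-named genes tested, 281 had at least 5 CPM in A375 and at most 3 counts in LOX-IMVI BR, and 27 had the reverse.

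The differences were not spread evenly over the chromosomes. The median over the genes of chromosome 19 was -0.97 as scaled and -0.46 with the GC correction, and that of chromosome 15 was -0.71 and -0.67. The median of chromosome 6 was 0.45 as scaled and 0.46 with the GC correction, that of chromosome 14 was 0.39 and 0.38, and that of chromosome 21 was 0.28 and 0.47. The median of chromosome 22 moved from -0.80 to -0.23 with the GC correction. Chromosome medians describe position only, and copy number was not measured.

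On chromosome 19 the zinc-finger genes stood out, a group chosen after their values were seen and defined by a name starting with ZNF, ZFP, ZKSCAN or ZSCAN. These are mostly KRAB zinc-finger repressors, which lie there in clusters of related genes and silence transposable elements. Of 243 tested on chromosome 19, 8 were called higher and 159 lower (65.4%), with a median of -2.86, or -3.15 with the GC correction. The 270 on other chromosomes had 48 higher and 81 lower (30.0%) and a median of -0.24. The 805 other genes of chromosome 19 had 353 lower (43.9%) and a median of -0.74. In LOX-IMVI BR, 115 of the 243 (47.3%) were under 0.3 CPM in both libraries, against 2 (0.823%) in A375. Among the 805 other genes of chromosome 19 these shares were 18.5% in LOX-IMVI BR and 6.34% in A375. For zinc-finger names on other chromosomes they were 10.4% and 2.59%, and for other genes on other chromosomes 14.3% and 6.61%. ZNF91, which represses retrotransposons, was at 19.1 and 24.7 CPM in A375 and 0 and 0 CPM in LOX-IMVI BR, at least 290-fold lower. ZNF44 was at 21.5 and 11.5 CPM in A375 and 0 and 0 CPM in LOX-IMVI BR, at least 259-fold lower. ZNF320, chosen after its values were seen, was at 69.9 and 44.3 CPM in A375 and 0.0502 and 0.228 CPM in LOX-IMVI BR, a log2 difference of -8.59 ± 0.72 (adjusted p = 2.1e-07). Related copies of these genes can share reads. The summed level of the 243 genes was 3849 and 3501 CPM in A375 and 2148 and 2096 CPM in LOX-IMVI BR.

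**Figure D5:**
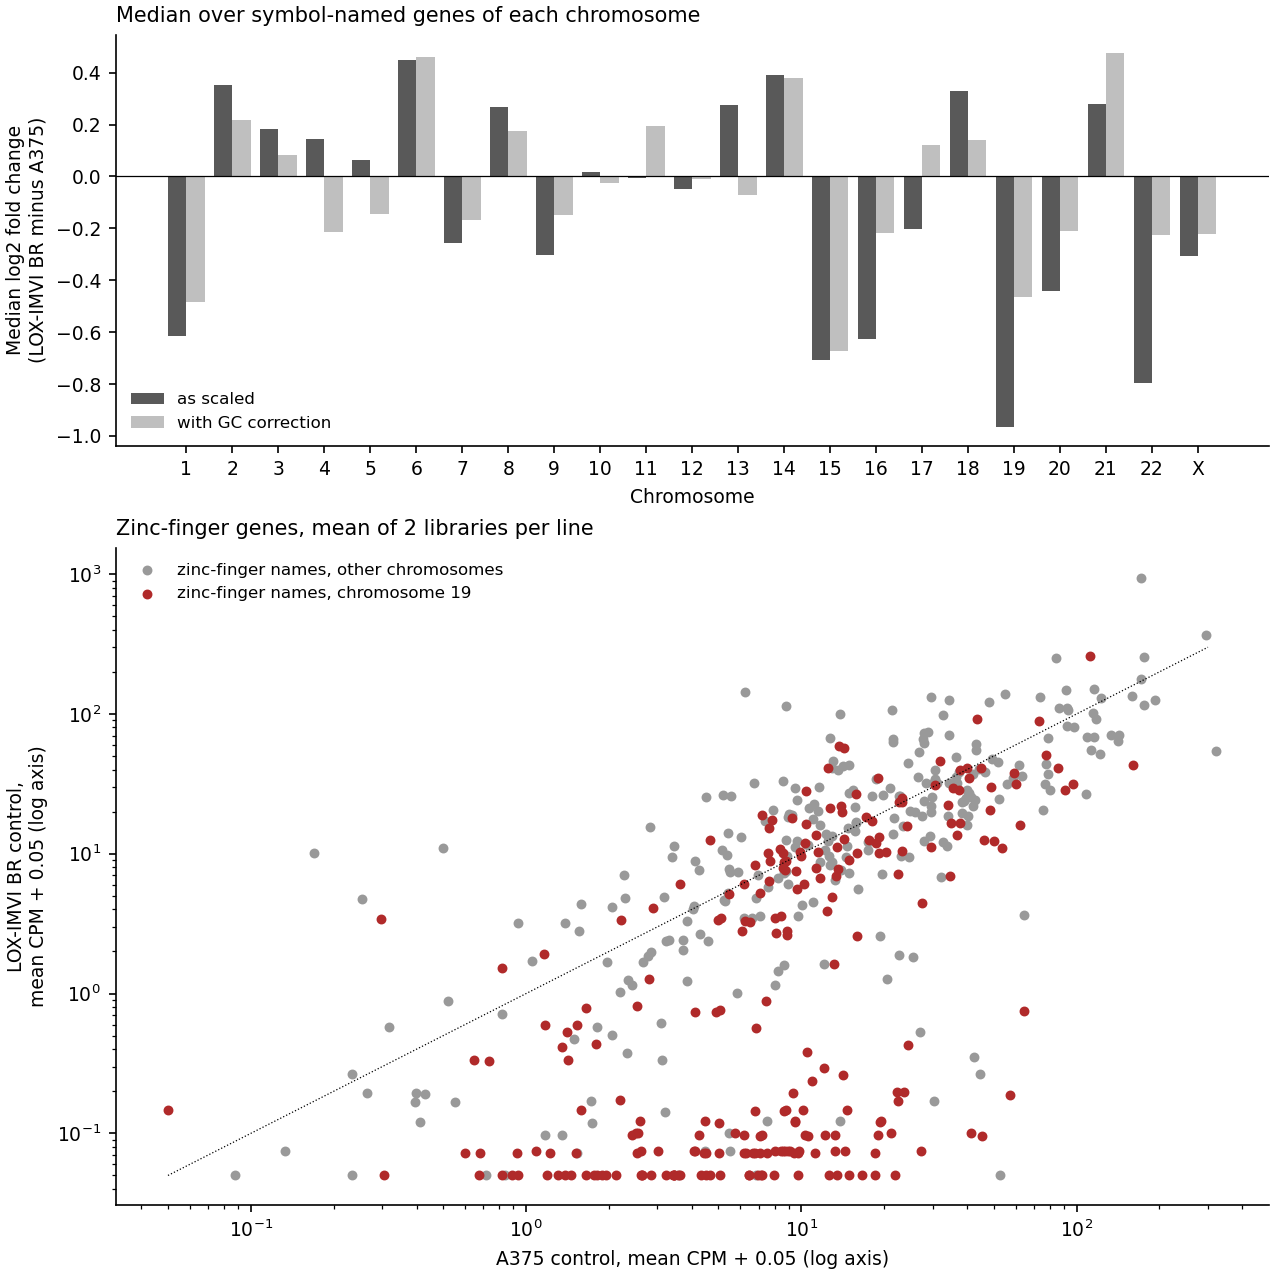
Top, median log2 difference (LOX-IMVI BR minus A375) over the symbol-named genes of each chromosome, as scaled (dark bars) and with the GC correction (light bars). Bottom, each point is a zinc-finger gene, with its mean level in the A375 control on the x axis and in the LOX-IMVI BR control on the y axis (CPM plus 0.05, log axes); genes of chromosome 19 are red, others grey, and the dotted line marks equal levels. Of the 243 red points, 115 (47.3%) lay under 0.3 CPM in both LOX-IMVI BR libraries, against 10.4% of the grey points. Among genes without a zinc-finger name, not drawn, the share was 18.5% on chromosome 19 and 14.3% on other chromosomes.

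The same lines were also compared under each compound, in libraries whose means did not enter the control difference. The low-count filter, the scaling and the estimate of spread were shared by all 12 libraries. The 3 comparisons are therefore not independent of each other. Under 6-thio-dG, 6479 genes (22.3%) were higher in LOX-IMVI BR and 8545 (29.4%) lower. Under BIBR1532, 7845 (26.9%) were higher and 8700 (29.9%) lower. Of the genes higher under control, 3845 were also higher under 6-thio-dG, which is 62.7% of the control calls and 59.3% of the treated ones, and 165 were called in the opposite direction. Of those lower under control, 6112 were also lower under 6-thio-dG (73.0% and 71.5%), and 88 were opposite. Under BIBR1532, 4544 were shared among the higher (74.1% and 57.9%) and 6399 among the lower (76.4% and 73.6%), with 71 and 69 opposite. A total of 3475 genes (56.7% of the higher control calls) were higher and 5501 (65.7% of the lower) lower in all 3 comparisons.

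Most of the lineage genes had the same direction under both compounds. SOX10 was lower, at -9.02 and -10.90 on the log2 scale under 6-thio-dG and BIBR1532 respectively. Of the 19 neural crest genes lower under control, 19 and 18 were again lower, and of the 8 higher, 7 and 7 were again higher. MITF differed from that pattern, with a difference of -0.00 under 6-thio-dG (adjusted p = 1.00) and 1.31 under BIBR1532 (adjusted p = 0.032), against -2.41 under control. The difference in AXL was -0.28 (adjusted p = 0.40) and -0.45 (adjusted p = 0.16), against -1.81. CD274 was lower in LOX-IMVI BR under control (-3.12) and stood at 0.93 (adjusted p = 0.061) and 1.79 (adjusted p = 0.0012) under the compounds. COL1A1 was higher by 9.01 under control, 2.22 under 6-thio-dG and 8.48 under BIBR1532. Whether these differences between lines changed with treatment was not tested here.

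The treated libraries gave the following for groups of the cell cycle, interferon, p53 and ERK genes. Of the 26 mitosis genes higher under control, 14 were higher under 6-thio-dG and 26 under BIBR1532. Of the 20 replication genes, 8 and 18 were. Of the 23 interferon-stimulated genes higher under control, 14 and 17 were again higher. Of the 16 p53 pathway genes lower under control, 8 and 10 were again lower. GADD45A, 15.5-fold lower under control, differed by -0.16 (adjusted p = 0.65) and 0.30 (adjusted p = 0.38). Of the 15 ERK output genes lower under control, 12 and 14 were again lower, among them DUSP4, at -9.42 and -10.21.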

How the data were processed

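RNA of 12 libraries was sequenced, and the 4 control libraries of A375 and LOX-IMVI BR are described. The authors deposited 1 table of raw counts per gene, not normalized. The submitters' processing notes name STAR, Picard, GATK, featureCounts 1.5.1, hg19 and GRCh37; the use of each tool is not given there. The table held 75253 rows, 21153 with usable symbols and 54072 NONCODE long noncoding identifiers. Some symbols had become dates in a spreadsheet, so 4 rows with repeated date names were left out (at most 0.000913% of a library) and 24 were kept unnamed. Totals per library ran from 11813388 to 25822381 counts, and intervals cover counting error only.

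After filterByExpr and TMM scaling, each of the 6 groups of 2 libraries received its own mean in a single model of the 12 libraries, with edgeR 4.0.16 (R 4.3.3, robust quasi-likelihood, 6 residual degrees of freedom, common coefficient of variation 25.8%), so that the spread of all groups entered each test. P-values were adjusted by Benjamini-Hochberg over all genes tested. The replicates are labelled biological; an exact permutation of 2 against 2 libraries cannot go below 0.333. Chromosomes and transcript GC content came from GENCODE, and gene order and promoters from RefSeq (GRCh38.p14), matched by symbol; the GC of the longest transcript (coding where one exists) was found for 20567 symbols. The GC correction removed a lowess trend (span 0.3) of each library. The script was tested on simulated counts.

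Alternatives were scaling by DESeq2 1.42.0 or by the upper quartile, the test of DESeq2, limma 3.58.1 voom with group weights, no filter on low counts, a minimum of 1 CPM in 2 libraries, a replicate block, the GC correction alone and with the block, symbol-named genes only, the compared libraries alone, and leaving out each compared library. Replicate numbers did not pair the control libraries (correlation of deviations -0.0858).

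The comparison and the 34 gene lists (29 of biology, 5 of cell markers, 946 members tested) were chosen with earlier results of these data known. Genes named were the 15 largest rises and falls among called genes without overlap whose higher mean was 5 CPM or more, up to 6 called members of smallest adjusted p and the 3 of highest level per list, and 30 genes followed whatever their result; the text gives a selection. Genes named for a promoter motif, at or near 0 counts, or as zinc-finger genes or neighbours were picked after their values were seen. Where a line had 0 counts, the fold is a lower limit that assumes 3 counts over its libraries; where it had 1 to 3, the ratio carries a 95% interval for counting error.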

Additional observations from a re-analysis of the deposited data

How the results depend on the processing

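Calls were recomputed under 15 alternatives. In the control comparison, 6132 genes were higher and 8373 lower; with the replicate block 5925 and 7996 were, and for the treated libraries 6441 and 8229 (6-thio-dG) and 7619 and 8426 (BIBR1532). The numbers did not pair the lines (correlation of deviations -0.0858 under control, -0.0603 under 6-thio-dG and 0.0568 under BIBR1532), although within A375 the replicates under both compounds correlated at 0.66 and those under control and BIBR1532 at -0.29; the block ended no control call of a named gene. With the GC correction, which tests fewer genes, 4696 were lower under control, 4140 higher and 4277 lower under 6-thio-dG, and 4594 and 4691 under BIBR1532; with the block added these were 4595, 4126, 4190, 4551 and 4615. With symbol-named genes only, the counts were 3290 and 4582 under control, 3626 and 4562 under 6-thio-dG, and 4336 and 4962 under BIBR1532. Higher calls under 6-thio-dG were 3629 with voom and 2957 with the compared libraries alone. Leaving out 1 library gave 4288 to 5855 higher and 5976 to 8002 lower under control, 4531 to 8073 and 6159 to 9653 under 6-thio-dG, and 5637 to 6785 and 6509 to 7882 under BIBR1532. With upper-quartile factors the overall median under BIBR1532 moved by -0.41, and by -0.23 under 6-thio-dG, and the higher share of calls under BIBR1532 went from 47.4% to 36.7%. Leaving out replicate 1 of A375 shifted the control median by 0.20, and no filter by 0.12. MYC changed sign with the GC correction (0.57, and 0.57 with the block), HOXB2 likewise (0.59 and 0.60), and GAPDH with the GC correction and block (0.71) and without replicate 2 of A375 (0.87), against -0.68 without replicate 1; the cause was not tested. Of 267 called named genes, 232 were called in every alternative; most losses came from leaving out a library (12 to 17 each) or fitting the compared libraries alone (16). Among the calls lost with the compared libraries alone were those of CCND1, ITGA5, CD44, CDK4, ENO1, FASN and RPLP0. That fit called 7 glycolysis and hypoxia genes higher and 1 lower. Of 68 list counts, 41 stayed within 1.5 times throughout. Depth limits the genes near 0 counts, whose folds are limits or intervals.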

Other observations

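Genes that were counted in 1 line and nearly absent from the other lay side by side in places. Along each chromosome, in RefSeq order, runs of at least 3 neighbouring expressed genes were listed in which every gene had at least 3 CPM in 1 line and under 0.3 CPM in the other. There were 22 such runs, all 22 low in LOX-IMVI BR and 0 low in A375. Single symbol-named genes were also split unevenly. Of 14419 tested, 281 were at 5 CPM or more in A375 and at most 3 counts in LOX-IMVI BR. The reverse held for 27. How many runs that split alone would give was not tested. On chromosome 19 lay 12 of the runs, of which 11 held zinc-finger genes only, and the longest had 10 genes, ZNF493 to ZNF254. Runs outside chromosome 19 included HOXC13, HOXC12 and HOXC11, 6 neighbouring protocadherin alpha genes from PCDHA5 to PCDHAC2, and the class II genes HLA-DQA1, HLA-DQB1, HLA-DQA2 and HLA-DQB2. HLA-DQA1 was at 5.65 and 11.7 CPM in A375 and 0 and 0 CPM in LOX-IMVI BR, at least 103-fold lower. A further run joined ETNK2, KISS1 and GOLT1A; KISS1 was first described as a metastasis suppressor of melanoma. Related neighbours can share reads, and methylation and copy number were not measured.

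Beside CDKN2A, the interferon gene IFNE of the same region, named after its values were seen, was at 0.823 and 0.453 CPM in A375 and 7.18 and 6.51 CPM in LOX-IMVI BR, a log2 difference of 3.31 ± 0.40 (adjusted p = 9.3e-06), so it was higher in LOX-IMVI BR together with CDKN2B. Among long noncoding loci, NONHSAG052756 was at 91.4 and 50.2 CPM in A375 and 0 and 0 CPM in LOX-IMVI BR, at least 1108-fold lower, and NONHSAG025433 was at 0 and 0 CPM in A375 and 19.2 and 19.4 CPM in LOX-IMVI BR, at least 243-fold higher.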
